A study of Homo sapiens with 6 samples.

Results

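Clathrin-mediated endocytosis and endosomal sorting were followed through 43 genes, in SUM159 cells that carried either empty vector or SH3GL2. The genes were chosen by what their proteins do, with earlier results of these data known. Every probe set whose annotated symbol was a member was taken. Of the 43 genes, 42 were named by at least 1 probe set, and 109 of the 22215 probe sets tested belonged to them. For 40 genes there were probe sets with a single symbol, 105 in all. AP2A1 was named by none, and NUMB and EPN2 only by 4 probe sets that also carry another symbol, so these were kept apart. A gene was summarised by its probe set with the highest mean over all arrays, and other probe sets are given where they were called or had an unadjusted p under 0.05. Besides the 40 summary probe sets there were 65 others, of which 8 were called and 18 had an unadjusted p under 0.05.

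SUM159 is a triple-negative breast cancer cell line, and both groups were stably transfected with pcDNA 3.1, which held no insert in 3 empty vector arrays and SH3GL2 in 3 SH3GL2 arrays. The labels give no other treatment or time point, and per the study's methods the transfected cells were stable clones kept under G418. Whether a group was 1 clone or several pooled is not given in the sources used here. Total RNA was labelled and hybridised to Affymetrix GeneChip arrays, in which several short probes make up a probe set for a transcript, and the values are log2 signals. The labels do not say whether the 3 arrays of a group came from separate cultures, so the p-values measure the spread between these samples, which may be technical. In a population of cells, fewer cells with a transcript and less of it in each cell cannot be told apart.

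Clathrin heavy and light chains form the lattice of a coated pit, the AP2 complex ties that lattice to the plasma membrane and to the tails of cargo receptors, and accessory proteins bend the membrane and bring in actin and dynamin. SH3GL2 encodes endophilin A1, a membrane-curving protein that acts late in the budding of the vesicle and brings in dynamin and synaptojanin. Once inside, cargo reaches early endosomes marked by RAB5 proteins, from which it returns to the surface by routes that use RAB4, RAB11, ARF6 and EHD proteins, passes back to the Golgi with retromer, or goes on to lysosomes. Transferrin receptor is the classic cargo of this route, and caveolae are a separate, clathrin-independent kind of membrane pit.

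Array medians lay between 6.97 and 7.02, and arrays correlated at 0.9971 to 0.9982 within a group and at 0.9947 to 0.9965 between groups (Pearson's r across probe sets, a description). As a gauge of background, 45 genes of other organs gave 73 reference probe sets, whose median was 4.86 and whose 95th percentile was 6.87. The SH3GL2 probe set itself read 3.22 ± 0.04 with empty vector and 3.26 ± 0.09 with SH3GL2 (SD, n = 3 each), below that median in both groups, so it does not check the labels. VIM, FN1, CD44 and AXL, markers of a mesenchymal-like breast cancer line, were above the 95th percentile in both groups. AXL (log2 fold change -0.49, limma adjusted p = 0.00011) and FN1 (-0.31, adjusted p = 0.00592) were called lower with SH3GL2, and VIM (-0.11, adjusted p = 0.103) and CD44 (-0.20, adjusted p = 0.0645) were not called; the part of this in the members' values was not tested. ESR1, PGR, CDH1, EPCAM, PTPRC, CD3E, PECAM1 and CDH5 were not above it. ERBB2 was above the 95th percentile, at 8.50 with empty vector and 8.45 with SH3GL2. The gap between 3' and 5' control probe sets of ACTB, a gauge of RNA integrity, averaged 2.16 log2 units in both groups. That of GAPDH was smaller, at 0.34 with empty vector and 0.32 with SH3GL2.

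Most of the machinery showed no called difference. TFRC, the transferrin receptor, was higher in SH3GL2 cells, and DAB2, a clathrin adaptor for receptors of the LDL family, and CAV1, the main protein of caveolae, were lower. The other 37 of the 40 genes did not pass an adjusted p of 0.05 (limma, Benjamini-Hochberg over all 22215 probe sets), and among them were all 3 clathrin chains and all 8 adaptor complex subunits measured. The called differences were small, from 0.26 to 0.41 in absolute log2 fold change. Of the 11963 genes that a single-symbol probe set named on the array, 4.90% passed the same test, 2.54% higher and 2.36% lower, and 7.50% of the members did. The members were mostly well measured: the mean of at least 1 group lay above the reference 95th percentile for 38 of 40, against 60.0% of all genes. Among genes above that level 7.12% were called, and 7.89% of the members were, a share near the background. At an unadjusted p under 0.05 there were 10 members of 40, and 17.5% of all genes had such a p. For 13 members, or 32.5%, no SH3GL2 array overlapped any empty vector array, against 20.6% of all genes, and above the reference 95th percentile the shares were 34.2% of members and 25.7% of all genes. At the level of probe sets, 11 of 105 (10.5%) were called, 3 higher and 8 lower, where the whole array gave 4.17%, 1.99% higher and 2.18% lower. The groups did not overlap on 30 of them (28.6%, against 19.4% of the whole array), 14 higher and 16 lower, where the array gave 10.5% and 8.97%. These probe set comparisons were not matched for signal. Of the 105, 82 had a group mean above the reference 95th percentile, and 51.8% of the whole array exceeded it in the mean over all arrays. DAB2 gave 4 of the 11 calls, and TFRC and CAV1 gave 2 each, from probe sets that share their RNA. Probe sets of 1 gene are thus not independent, and an excess among the members was not tested.

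The 40 log2 fold changes ran from -0.41 to 0.30 with a median of 0.025, beside a median of 0.017 over all genes, and 23 were positive and 17 negative. Their median size was 0.065 log2 units, against 0.083 over all genes. For 32 of the 37 genes not called, the whole 95% confidence interval lay within 0.32 log2 units of 0 in either direction (the shaded band in the plot of all members). Such an interval was found for 80.0% of the 40 members and 64.1% of all genes. Above the reference 95th percentile the shares were 78.9% of members and 70.7% of all genes. On single arrays the median of the members differed from the empty vector mean by -0.035 on SH3GL2 replicate 1, by 0.06 on replicate 2 and by 0.04 on replicate 3. Without replicate 2 the median log2 fold change was -0.01.

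**Figure D1:**
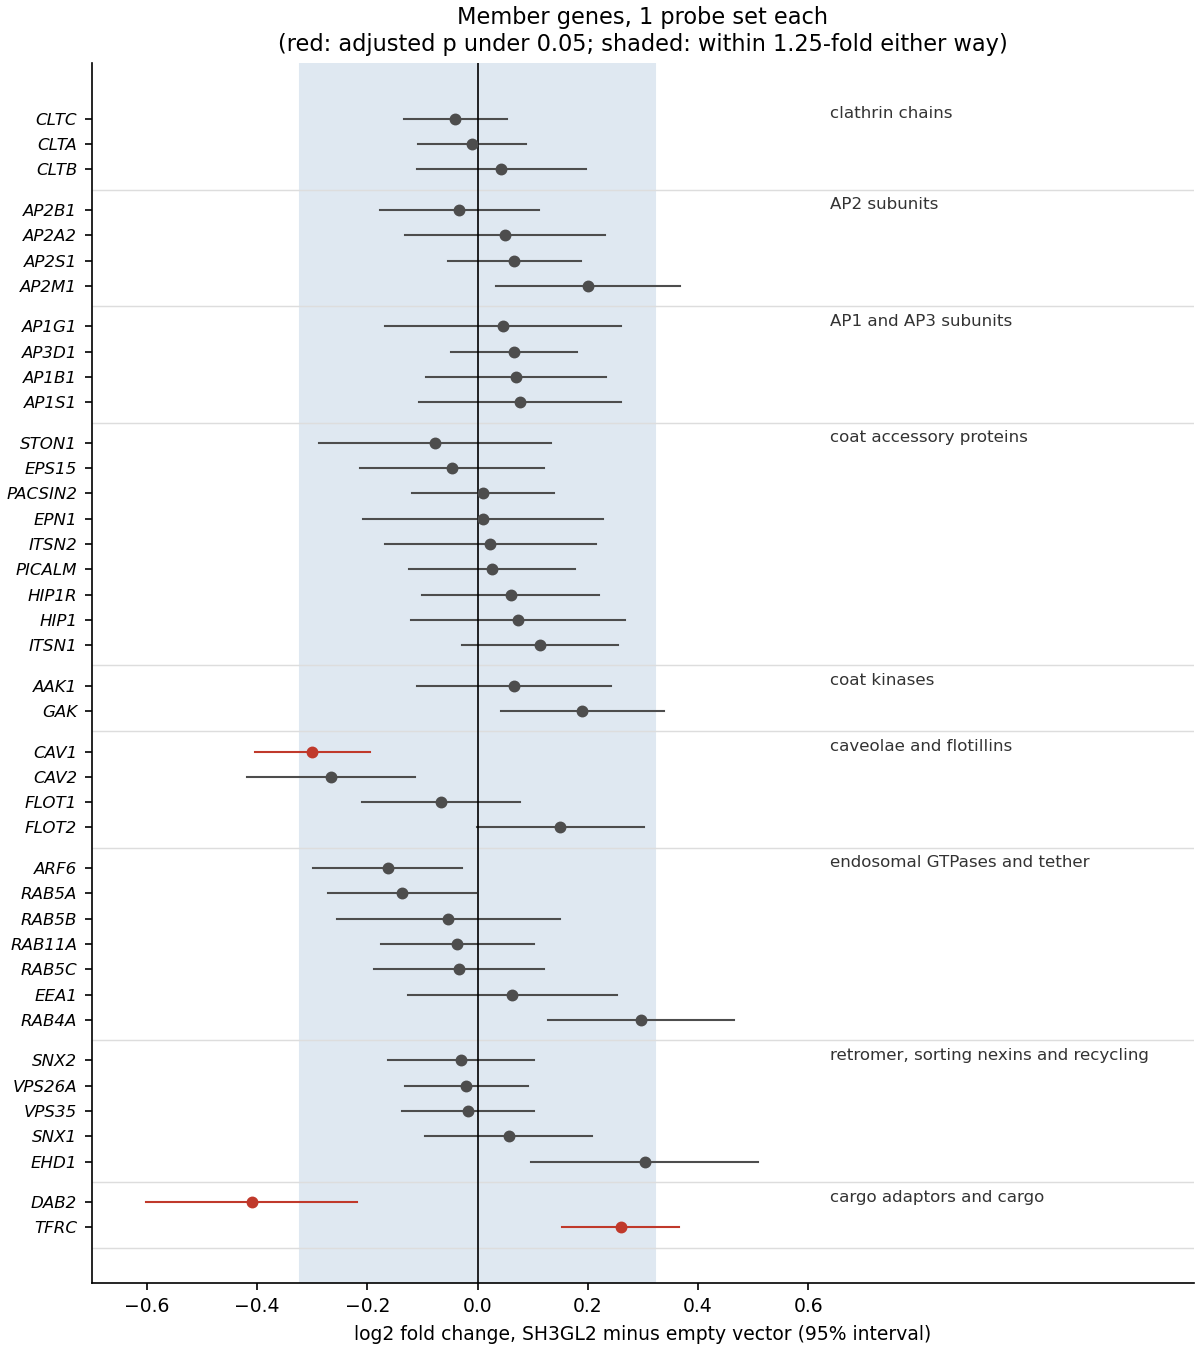
Log2 fold change (SH3GL2 minus empty vector) of the 40 measured genes of the endocytic machinery, 1 probe set per gene, grouped by role, with red for adjusted p under 0.05, points at the estimate and bars at the limma 95% confidence interval. TFRC (0.26), DAB2 (-0.41) and CAV1 (-0.30) are the called genes, the intervals of the 3 clathrin chains include 0, and AP2M1 (0.20) is the adaptor subunit farthest from it.

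None of the 3 clathrin chains passed the test. CLTC, the heavy chain that forms the legs of the triskelion, read 13.31, 13.34 and 13.24 on the empty vector arrays and 13.21, 13.28 and 13.28 on the SH3GL2 arrays. The 2 groups overlapped, and the log2 fold change of -0.04 had a 95% confidence interval from -0.13 to 0.05 (limma adjusted p = 0.748). CLTB, a light chain, read 9.90, 9.90 and 9.78 against 9.81, 10.02 and 9.88, which also overlapped, with a log2 fold change of 0.04 (SE 0.07, limma adjusted p = 0.845). That sign turned to -0.02 without SH3GL2 replicate 2 and to -0.03 in the mean over its 4 probe sets. CLTA, the other light chain, differed by -0.01. None of the 11 probe sets of the clathrin chains was called. The lowest was a dim CLTB probe set under the reference 95th percentile, at -0.23 without overlap (unadjusted p = 0.0326 and adjusted p = 0.254 in limma), and intervals of the summary probe sets covered -0.13 to 0.20 log2 units.

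Among the AP2 subunits, the log2 fold changes ran from -0.03 to 0.20 and 0 of 4 genes passed the test, with 1 at an unadjusted p under 0.05. That gene was AP2M1, the mu subunit, which reads tyrosine-based sorting signals in cargo tails. It read 9.43, 9.37 and 9.51 with empty vector and 9.52, 9.78 and 9.61 with SH3GL2. Every SH3GL2 array was above every empty vector array, though by as little as 0.01, and the log2 fold change of 0.20 (SE 0.08) had an adjusted p of 0.208 in limma. Without SH3GL2 replicate 2 it was 0.13 (adjusted p = 0.482). AP2A2, a large alpha subunit, differed by 0.05, AP2B1, the beta subunit that holds clathrin, by -0.03, and AP2S1, the small subunit, by 0.07, with overlapping groups in each.

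AP1 sorts cargo between the Golgi and endosomes, and AP3 serves traffic to lysosomes and related organelles. Their 4 measured subunits (AP1B1, AP1G1, AP1S1 and AP3D1) differed by 0.05 to 0.08, and 0 passed the test. AP1S1, the small subunit of AP1 and the one with the largest difference, read 10.22, 10.28 and 10.20 against 10.14, 10.52 and 10.27, with overlapping groups and an adjusted p of 0.752 in limma. Its sign depended on 1 array, since the log2 fold change was 0.08 with all arrays and -0.03 without SH3GL2 replicate 2.

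On their summary probe sets the 9 measured accessory proteins lay within -0.08 to 0.11 log2 units, and 0 passed the test or an unadjusted p of 0.05. The largest was ITSN1, a scaffold that links coat proteins with dynamin and with actin regulators. It read 9.20, 9.33 and 9.28 with empty vector and 9.41, 9.37 and 9.37 with SH3GL2, without overlap, and its log2 fold change of 0.11 (SE 0.07) had an adjusted p of 0.461 in limma. Another ITSN1 probe set differed by 0.21, with overlapping groups (unadjusted p = 0.0486 and adjusted p = 0.311 in limma). ITSN2, its paralogue, differed by 0.02. PICALM, which helps set the size of clathrin coats and carries SNARE proteins into them, differed by 0.03, and EPS15, an early coat scaffold, by -0.05. EPN1, a ubiquitin-binding epsin, and PACSIN2, an F-BAR protein, each differed by 0.01. HIP1 and HIP1R, which tie coats to actin, differed by 0.07 and 0.06. STON1, a stonin, read 4.52 and 4.44, under the reference 95th percentile in both groups. Of the probe sets shared with another symbol, those naming the epsin EPN2 differed by 0.01 and -0.07, and those naming NUMB, an adaptor for Notch and integrins, by -0.08 and -0.19, with adjusted p from 0.400 to 0.964 in limma.

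The 2 kinases that phosphorylate the AP2 mu subunit were GAK, which also strips coats from vesicles, and AAK1. GAK read 9.41, 9.42 and 9.41 with empty vector and 9.49, 9.65 and 9.67 with SH3GL2. The groups did not overlap, and the log2 fold change of 0.19 (SE 0.07) had an unadjusted p of 0.0158 and an adjusted p of 0.170 in limma. A dim GAK probe set, under the reference 95th percentile, differed by 0.30 with overlapping groups (limma adjusted p = 0.239). AAK1 differed by 0.07, with overlapping groups, on its summary probe set. On another, under the reference 95th percentile, it differed by 0.21 without overlap (unadjusted p = 0.0468 and adjusted p = 0.304 in limma).

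TFRC, the receptor that carries iron-loaded transferrin into the cell, had 2 probe sets and both were called higher. On the brighter of them TFRC read 13.17, 13.15 and 13.20 with empty vector and 13.54, 13.37 and 13.39 with SH3GL2, without overlap. Its log2 fold change of 0.26 (SE 0.05), or 1.2-fold, had an adjusted p of 0.00829 in limma. The second TFRC probe set read 12.86, 12.92 and 12.83 against 13.30, 13.25 and 13.30, again without overlap. There the log2 fold change was 0.41 (SE 0.04), or 1.33-fold, and the adjusted p in limma was 8.98e-05. The call on the brighter probe set was lost without empty vector replicate 2 (adjusted p = 0.0503 in limma), and that on the second was kept without any 1 array, with adjusted p from 6.18e-05 to 0.00144. With a floor at the reference median, without the intensity trend and by one-way analysis of variance, the brighter lost its call (0.124, 0.119 and 0.213), and the second lost it by analysis of variance (0.0519).

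DAB2 encodes Disabled-2, which binds clathrin, AP2 and the tails of LDL-family receptors and integrins. All 4 of its probe sets were called lower, and on each of them every SH3GL2 array was below every empty vector array. The brightest read 9.84, 9.72 and 10 with empty vector and 9.5, 9.28 and 9.55 with SH3GL2, a log2 fold change of -0.41 (SE 0.09) with an adjusted p of 0.0188 in limma. A second read 9.01, 9.04 and 9.28 against 8.62, 8.38 and 8.76, and another 8.89, 8.80 and 8.99 against 8.52, 8.36 and 8.56. The dimmest read 8.67, 8.51 and 8.72 against 8.20, 8.11 and 8.26. On these 3 the log2 fold changes were -0.52, -0.41 and -0.44 with adjusted p of 0.0106, 0.0107 and 0.00705 in limma. DAB2 signal in SH3GL2 cells was thus 69.6% to 75.3% of that with empty vector, and probe sets of 1 gene share their RNA and are not replicates. Without empty vector replicate 3, the highest of its group, the call was lost on 3 of the 4 probe sets (adjusted p of 0.0895, 0.0535 and 0.0530 in limma), and on the brightest it was also lost without replicate 1 (0.0606). On the dimmest it was kept without any 1 array. All 4 calls were lost with the floor (adjusted p from 0.0840 to 0.196) and by one-way analysis of variance (0.163 to 0.293), and without the intensity trend that on the brightest was lost (0.0700).

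**Figure D2:**
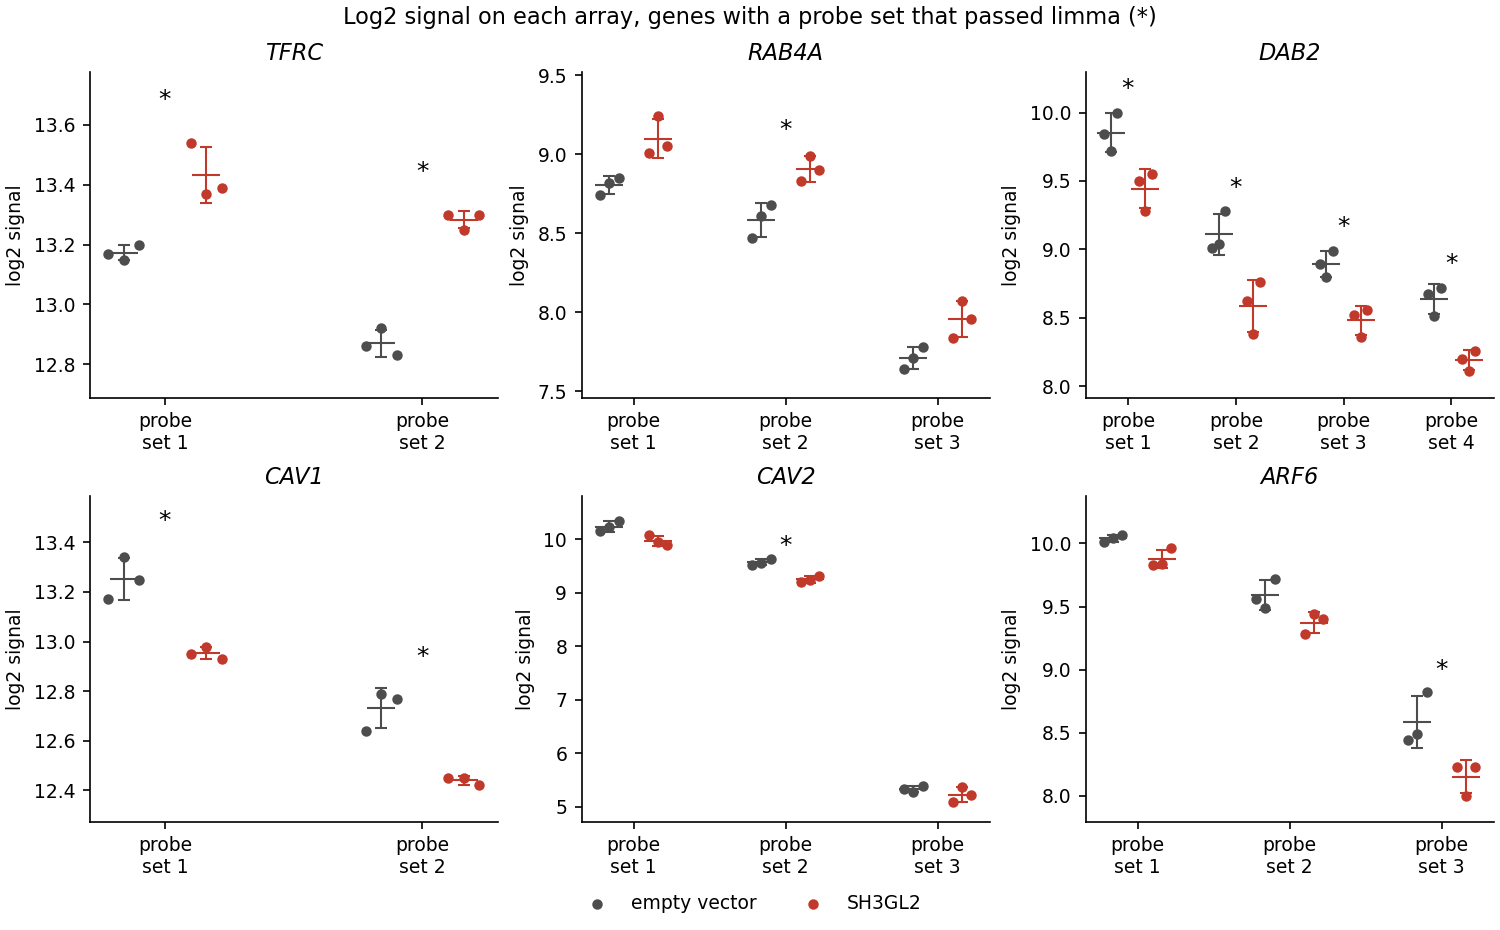
Log2 signal on each of the 3 empty vector and 3 SH3GL2 arrays for every probe set of the 6 genes with a called one, with points for arrays, dashes and bars for the mean and SD (n = 3), and an asterisk on called probe sets. On all 11 probe sets with an asterisk the 2 groups do not overlap, with TFRC and RAB4A higher in SH3GL2 cells and DAB2, CAV1, CAV2 and ARF6 lower. Each panel has its own signal scale.

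CAV1, which encodes caveolin-1, was called lower by both probe sets that name it. It read 13.17, 13.34 and 13.25 with empty vector and 12.95, 12.98 and 12.93 with SH3GL2, without overlap. The log2 fold change was -0.30 (SE 0.05), which left 81.2% of the empty vector signal, with an adjusted p of 0.00267 in limma. The other CAV1 probe set read 12.64, 12.79 and 12.77 against 12.45, 12.45 and 12.42, a log2 fold change of -0.29 with an adjusted p of 0.00378 in limma. Leaving out any 1 array kept both calls, with adjusted p up to 0.0244 on the brighter one. Both calls were lost with a floor at the reference median (adjusted p of 0.0824 and 0.0757), without the intensity trend of the fit (0.0693 and 0.0721) and by one-way analysis of variance (0.158 and 0.147).

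CAV2 encodes caveolin-2, which assembles with caveolin-1. Its brightest probe set read 10.15, 10.22 and 10.34 with empty vector and 10.07, 9.94 and 9.90 with SH3GL2, without overlap, and the log2 fold change of -0.27 (SE 0.07) stood just outside the threshold (limma adjusted p = 0.0536). It passed after quantile normalization (adjusted p = 0.0370) and among probe sets above the reference 95th percentile alone (0.0473). Besides these it passed only without SH3GL2 replicate 1 (0.0411). A second CAV2 probe set was called lower: it read 9.52, 9.56 and 9.63 against 9.20, 9.23 and 9.31, a log2 fold change of -0.32 (SE 0.07) with an adjusted p of 0.0141 in limma. That call was lost without empty vector replicate 2 (adjusted p = 0.0640) or replicate 3 (0.0652). It was also lost with the floor (0.0563) and by one-way analysis of variance (0.121). Its dimmest, under the reference 95th percentile, differed by -0.11 (limma adjusted p = 0.700). The flotillins, scaffold proteins of other membrane domains, were not called: FLOT1 differed by -0.07 with overlapping groups and FLOT2 by 0.15 without overlap (limma adjusted p = 0.322).

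The start regions of TFRC and DAB2, the called genes of cargo uptake, and of CAV1 and CAV2, the neighbouring caveolin pair, are shown because these genes carry the differences described above. The 250 bases before each RefSeq gene start are printed from the GRCh38.p14 assembly on the strand of the gene, at chr3:196082091-196082340 (minus strand) for TFRC, chr5:39424981-39425230 (minus strand) for DAB2, chr7:116524759-116525008 (plus strand) for CAV1 and chr7:116499488-116499737 (plus strand) for CAV2. Capitals mark a TATA box, searched as the letters TATAAA, and GC boxes. A GC box was searched as the letters GGGCGG, and one on the opposite strand reads CCGCCC.
TFRC: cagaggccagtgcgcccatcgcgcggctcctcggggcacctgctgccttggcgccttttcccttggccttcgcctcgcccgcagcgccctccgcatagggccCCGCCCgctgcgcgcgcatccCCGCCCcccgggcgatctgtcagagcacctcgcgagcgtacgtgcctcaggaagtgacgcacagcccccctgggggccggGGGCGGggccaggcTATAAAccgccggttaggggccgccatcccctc
DAB2: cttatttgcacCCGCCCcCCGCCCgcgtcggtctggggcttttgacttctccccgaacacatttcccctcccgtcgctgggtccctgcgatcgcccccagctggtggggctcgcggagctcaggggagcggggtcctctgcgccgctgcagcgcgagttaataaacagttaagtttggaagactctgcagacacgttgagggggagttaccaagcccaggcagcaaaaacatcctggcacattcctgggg
CAV1: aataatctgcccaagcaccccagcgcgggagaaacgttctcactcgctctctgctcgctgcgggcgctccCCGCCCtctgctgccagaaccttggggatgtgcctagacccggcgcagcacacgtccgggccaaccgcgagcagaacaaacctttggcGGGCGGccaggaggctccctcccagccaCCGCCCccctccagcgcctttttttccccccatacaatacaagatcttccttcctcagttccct
CAV2: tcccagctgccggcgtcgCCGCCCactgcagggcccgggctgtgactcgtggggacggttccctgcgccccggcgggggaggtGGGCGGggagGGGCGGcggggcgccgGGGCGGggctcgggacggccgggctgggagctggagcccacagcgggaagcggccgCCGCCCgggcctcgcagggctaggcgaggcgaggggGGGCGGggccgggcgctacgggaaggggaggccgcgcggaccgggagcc
The search covered both strands. It also took in the CCAAT box, the AP-1 site with the letters TGACTCA and the E-box with the letters CACGTG, of which these 4 windows held no match. TFRC held a TATA box 33 bases before its start and 3 GC boxes, while DAB2 held 2 GC boxes, CAV1 held 3 and CAV2 held 6. GC boxes are common: windows of the same length at 53.7% of 22199 protein-coding starts held one. Of the 40 members matched to a window, 35 (87.5%) had one. Each member's window was that nearest its RefSeq gene start, and the difference between these shares was not tested. TATAAA stood in 9.0% of protein-coding windows and in 1 member's, that of TFRC. A match is a description of the letters and not a site shown to be bound, and the arrays carry no measure of these regions. CAV2 and CAV1 lie next to each other, with 0 protein-coding genes starting between them and the first bases of their printed windows 25271 bases apart.

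Of the 7 endosomal GTPases and tether, 0 passed the test on the summary probe set, although RAB4A and ARF6 each had a dimmer probe set that did. RAB4A, which sends cargo back to the surface by the fast route, read 8.74, 8.82 and 8.85 with empty vector and 9.01, 9.24 and 9.05 with SH3GL2. The groups did not overlap, and the log2 fold change of 0.30 (SE 0.08) had an adjusted p of 0.0531 in limma. A second RAB4A probe set was called higher, with 8.47, 8.61 and 8.68 against 8.83, 8.99 and 8.90, a log2 fold change of 0.32 (SE 0.08) and an adjusted p of 0.0397 in limma. Its dimmest read 7.64, 7.71 and 7.78 against 7.84, 8.07 and 7.96, again without overlap, at 0.25 (limma adjusted p = 0.156). With arrays left out, the call on the second was kept only without empty vector replicate 3 (adjusted p = 0.0447). It was lost without each other array (0.0512 to 0.143). Centring on array medians (0.0654), the floor (0.154), no intensity trend (0.0845) and analysis of variance (0.246) also lost it. Quantile normalization, 16 added before log2 and a robust prior kept it (0.025, 0.0421 and 0.0313). So did the replicate block (0.0275) and only probe sets above the reference 95th percentile (0.0244).

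ARF6 governs recycling and membrane ruffling at the cell edge. On its brightest probe set it read 10.01, 10.04 and 10.07 with empty vector and 9.83, 9.84 and 9.96 with SH3GL2, a log2 fold change of -0.16 (SE 0.06) with an adjusted p of 0.202 in limma. A second read 9.56, 9.49 and 9.72 against 9.28, 9.44 and 9.40 (limma adjusted p = 0.163). Its dimmest, called lower, read 8.44, 8.49 and 8.82 against 8.23, 8.0 and 8.23, a log2 fold change of -0.43 (SE 0.11) with an adjusted p of 0.0386 in limma. On all 3 probe sets every SH3GL2 array was below every empty vector array. The call rested on single arrays: it was kept without empty vector replicate 1 (adjusted p = 0.0391) and lost without each of the others (0.0673 to 0.130). It was also lost with the floor (adjusted p = 0.254), without the intensity trend (0.092) and by one-way analysis of variance (0.346).

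RAB5A, a GTPase of early endosomes, read 11.67, 11.65 and 11.69 with empty vector and 11.62, 11.39 and 11.59 with SH3GL2. The groups did not overlap, and the log2 fold change of -0.14 (SE 0.06) had an adjusted p of 0.305 in limma. Its second probe set also did not overlap, at -0.24 (limma adjusted p = 0.204). RAB5B and RAB5C, its paralogues, differed by -0.05 and -0.03, and RAB11A, of the slow recycling route, by -0.04, all with overlapping groups. EEA1, the tether that docks early endosomes, lay under the reference 95th percentile on both probe sets. These had opposite signs, at 0.06 with overlapping groups and -0.32 without overlap. In limma the adjusted p was 0.812 on the first and 0.0693 on the second, where the unadjusted p was 0.00353.

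Retromer lifts cargo out of endosomes. VPS26A and VPS35, both of its core, differed by -0.02 each, and the sorting nexins SNX1 and SNX2, which bend the tubules it uses, by 0.06 and -0.03, with overlapping groups in all 4. A dim SNX1 probe set, under the reference 95th percentile, differed by -0.25 without overlap (unadjusted p = 0.0450 and adjusted p = 0.299 in limma). EHD1, an ATPase that helps recycling carriers leave the endosome, read 7.94, 8.05 and 8.03 with empty vector and 8.13, 8.50 and 8.30 with SH3GL2. The groups did not overlap, and the log2 fold change of 0.30 (SE 0.10) had an adjusted p of 0.110 in limma. All 5 of its probe sets had positive log2 fold changes, from 0.12 to 0.30, but 0 passed the test. Without SH3GL2 replicate 1 the log2 fold change was 0.39 and was called (limma adjusted p = 0.0453), and without replicate 2 it was 0.21 (adjusted p = 0.306). The EHD1 summary probe set can hybridise to several genes, as can those of AP2A2, AP2S1, CLTA, EPN1, ITSN2, FLOT1, ARF6 and VPS35. The same holds for the called DAB2 probe set that read 8.89, 8.80 and 8.99 with empty vector. On the brightest EHD1 probe set that is not marked so, which lay under the reference 95th percentile, the log2 fold change was 0.25 (limma adjusted p = 0.254).

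Over the 31 member genes with several probe sets, the sign was the same on all of them for 19, and over all 4310 such genes it was the same for 55.0%. The 6 genes with a called probe set (TFRC, RAB4A, DAB2, CAV1, CAV2 and ARF6) kept 1 sign over all their probe sets. They were picked by a call, and probe sets of 1 gene share their RNA, so the 55.0% is no fair comparison for them. The exact permutation test on a single probe set gave p = 0.1, two-sided, for all 11 called probe sets, the smallest p that 3 arrays against 3 allow.

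**Figure D3:**
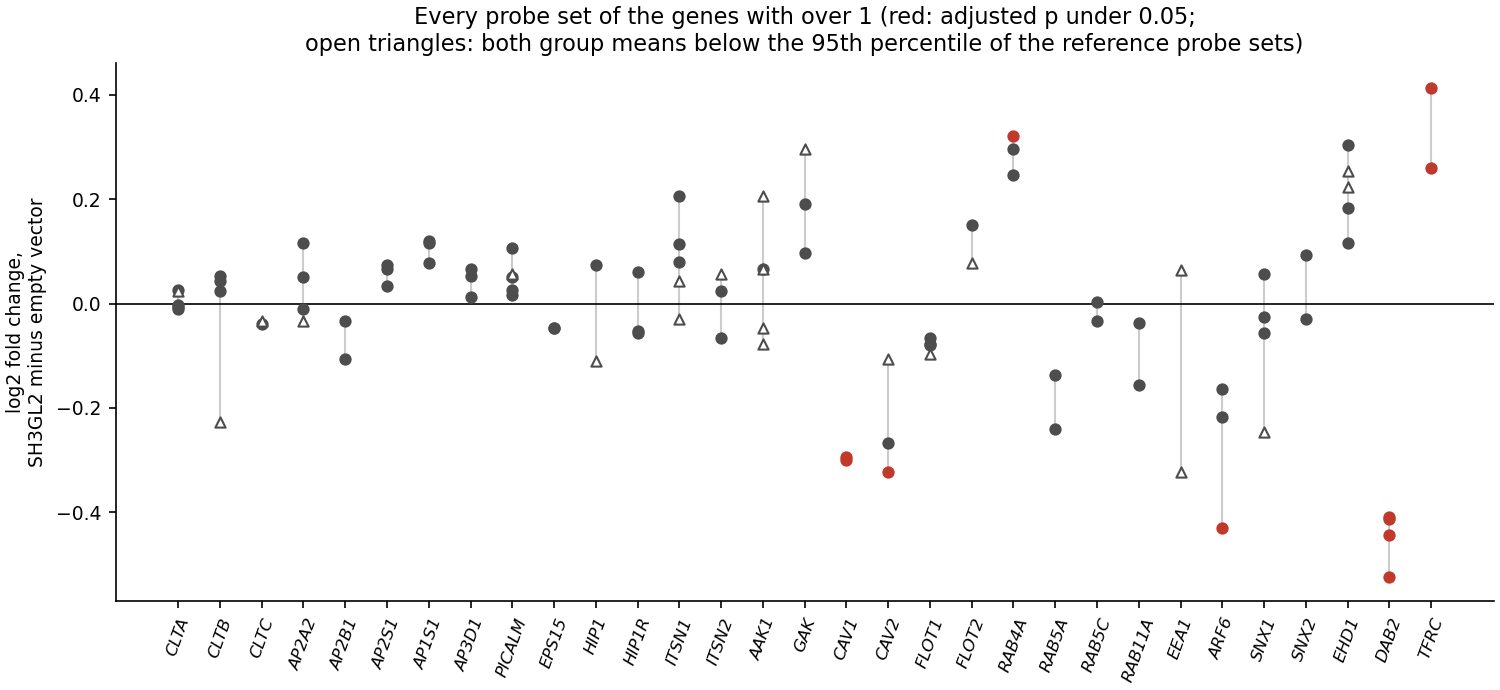
Log2 fold change (SH3GL2 minus empty vector) of every probe set with a single symbol for members with several probe sets, 1 column per gene on the horizontal axis, with red for adjusted p under 0.05 and open triangles for probe sets under the reference 95th percentile in both groups. All 4 DAB2 probe sets and both CAV1 probe sets are called on the negative side and both TFRC probe sets on the positive side.

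**Figure D4:**
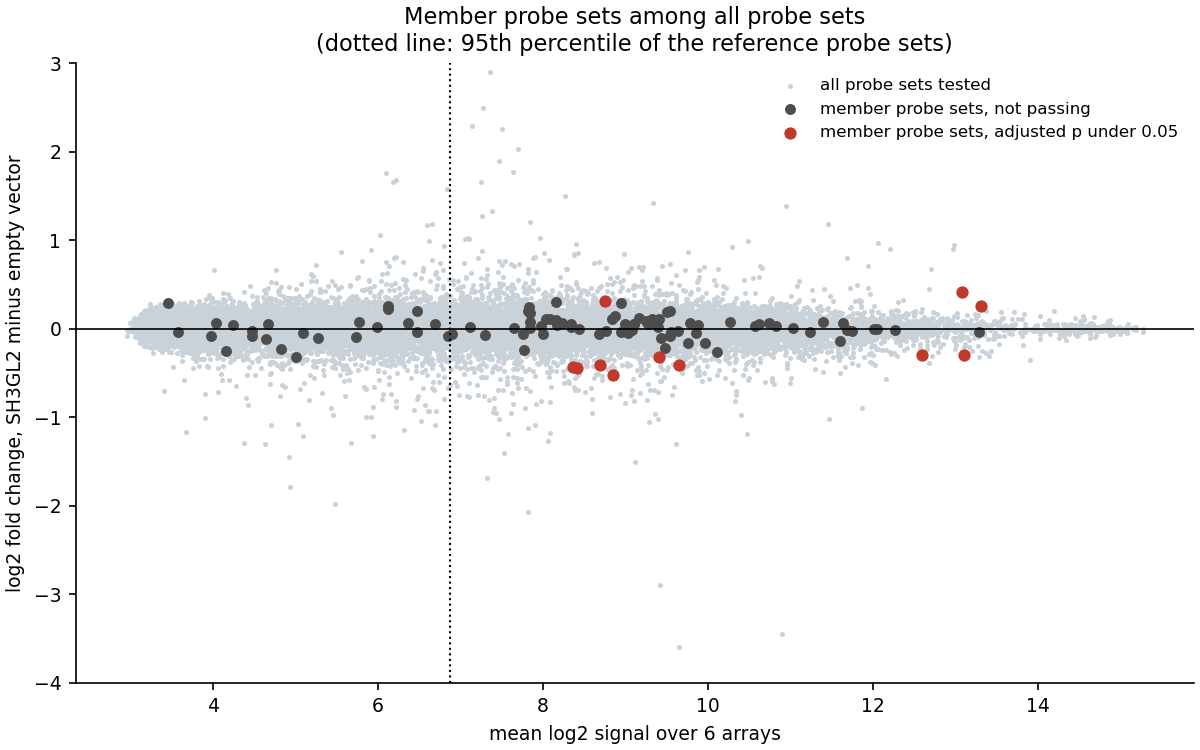
Log2 fold change against mean log2 signal for all probe sets tested (grey) and for the 105 probe sets of the endocytic machinery (dark grey, or red where adjusted p was under 0.05), with a dotted line at the reference 95th percentile. The 3 probe sets called higher and 8 called lower lie at moderate fold changes, with TFRC and CAV1 at the bright end.

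Genes of the same routes outside the 43 were counted from 6 lists, of which 139 of 169 genes were measured. Of these, 3 (2.16%) were called higher and 0 lower, and the median log2 fold change was 0.00. Among all genes 4.90% were called, 2.54% higher and 2.36% lower. At an unadjusted p under 0.05 there were 26 of the 139, 13 in each direction, where 17.5% of all genes had such a p. A one-way analysis of variance, which called only 33 probe sets higher and 44 lower on the whole array, called 0 of the neighbouring genes. The lists of other clathrin adaptors (27 measured), endosomal Rab proteins and effectors (37), retromer and sorting nexins (24) and cargo receptors (22) held 0 called genes.

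EHD3, a relative of EHD1 in the list of caveola and EHD genes (9 measured), read 7.61, 7.71 and 7.56 with empty vector and 8.20, 8.11 and 8.11 with SH3GL2. It rose by 0.51 log2 units (SE 0.08), or 1.43-fold, with an adjusted p of 0.00201 in limma. The other called genes were of the ARF6 circuit (20 measured). ARAP3, a GTPase-activating protein for ARF proteins, read 8.10, 8.17 and 8.14 against 8.51, 8.68 and 8.54, without overlap. It rose by 0.44 log2 units (SE 0.08, limma adjusted p = 0.00483). PSD3, of the family of ARF6 exchange factors, read 8.45, 8.41 and 8.45 against 8.91, 8.74 and 8.94, also without overlap. It rose by 0.43 log2 units (SE 0.08, limma adjusted p = 0.00578), and 2 of its 3 probe sets were called. Each of these 3 calls was kept without any 1 array, with adjusted p in limma up to 0.0152 for EHD3, 0.0244 for ARAP3 and 0.0496 for PSD3.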

How the data were processed

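RNA was measured on 6 Affymetrix arrays (3 empty vector, 3 SH3GL2). The authors deposited log2 signals, and the submitters' processing notes name MAS5; how the authors scaled the arrays to each other is not given in the sources used here. Values were used as deposited. Of 22277 probe sets, 62 controls were left out. The platform annotation gave 1 symbol to 19064, several to 1043 and none to 2108. Groups were taken from the labels and compared with limma 3.58.1 in R 4.3.3 (two-sided, no covariates, prior variance with an intensity trend). The p-values of all 22215 probe sets were adjusted together by Benjamini-Hochberg, and a result was called at an adjusted p under 0.05. Errors beside means are SD over 3 arrays. Values on every array are given for members with a called probe set, for the member of each role with the largest difference on its summary probe set, and for the called genes of the neighbouring lists; CLTC and RAB5A were added after their values were seen. The members, the neighbouring lists and the reference genes were chosen with earlier results of these data known.

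The fit was tested on simulated data. The number of arrays and the signal over background limit precision, and 51.8% of probe sets exceeded the reference 95th percentile in their mean over 6 arrays. Alternatives were quantile normalization, centring on array medians, 16 added before log2, a floor at the reference median, only probe sets above the reference 95th percentile, no intensity trend, a robust prior, one-way analysis of variance, the replicate number as a block, leaving out each array, the mean over probe sets of a gene, an adjusted p of 0.01 and, chosen after seeing the data, leaving out probe sets ending in _x_at, which can hybridise to several genes. Start regions came from RefSeq (GRCh38.p14), where 40 of the 43 members matched. Python 3.11.15 and matplotlib 3.10.9 drew the figures.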

Additional observations from a re-analysis of the deposited data

How the results depend on the processing

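Of the 40 genes, 1 was called higher and 2 lower. With the floor, without the intensity trend and by one-way analysis of variance 0 and 0 were called; the cause was not tested. Quantile normalization, only probe sets above the reference 95th percentile and a robust prior each gave 2 higher, RAB4A being the gene added, and the first and second of these gave 3 lower, CAV2 being added. An adjusted p under 0.01 left 1 lower. Without 1 array at a time, 0 to 2 genes were called higher and 1 to 3 lower. Of the probe sets, 3 were called higher and 8 lower. These became 1 and 1 with the floor, 1 and 5 without the trend and 0 and 0 by analysis of variance, and an adjusted p under 0.01 left 3 lower. Without 1 array at a time, 1 to 3 were higher and 3 to 8 lower. Neighbouring genes called higher (3) became 5 with only bright probe sets and 0 by analysis of variance. Those called lower (0) became 1 with quantile normalization or the robust prior and 2 with only bright probe sets or the mean over a gene's probe sets; without 1 array at a time they numbered 0 to 2. Median log2 fold changes of the members ran from -0.0133 to 0.0458 without 1 array at a time. The sign turned for AP1S1 and CLTB without SH3GL2 replicate 2 (ranges without 1 array at a time -0.0283 to 0.1617 and -0.015 to 0.09), and for CLTB (-0.0267) in the mean over its probe sets.

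Over all probe sets, 441 were called higher and 485 lower, 133 and 160 with the floor, 270 and 327 without the trend, 33 and 44 by analysis of variance, and 184 to 376 and 296 to 437 without 1 array at a time.

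The labels number the arrays 1 to 3 in both groups. Residuals of same-numbered arrays correlated at -0.01, 0.13 and 0.15, and those of differently numbered arrays at -0.16 to 0.02. These values do not settle whether the numbers are pairs, and the main fit did not take them so. With the replicate number as a block, 2 member genes were called higher (RAB4A added, adjusted p = 0.0408 in limma) and 2 lower, and 2 neighbouring genes were lower; over all probe sets 506 were higher and 573 lower.

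EEA1, STON1 and the EHD1 probe sets not ending in _x_at lay under the reference 95th percentile. For these the signal over background limits what the arrays show.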
